A study of Mus musculus with 4 samples.

Results

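The genes described here encode chemokines, interleukins and their receptors, the soluble signals that stromal cells and leukocytes exchange. They were chosen by symbol alone, with no measured value: the protein-coding genes on chromosomes 1 to 19 named Ccl, Cxcl, Ccr or Cxcr with a number, and those whose symbol starts with Il and a number. The rule took 130 of 20665 protein-coding genes, 25 CC and 12 CXC chemokine ligand genes, 15 chemokine receptor genes, 10 ligand genes of the interleukin 1 family, 28 other interleukin genes, 36 interleukin receptor chain genes and 4 others. The series used ChIP-seq, the sequencing of immunoprecipitated chromatin, to map histone H3 dimethylated at lysine 36 (H3K36me2). The cells were cultured mesenchymal stem cells (MSCs) of mouse bone marrow. In 1 group the MSCs received 1 µM melatonin, the pineal hormone, for 24 hours, and in the other they were untreated. The design text places the melatonin experiment in MSCs of old donors, and the labels give no strain, age in months or number of animals. Each condition had 1 ChIP library and 1 input library, and the deposited lists hold the regions called in each ChIP library over its own input. All differences below are therefore between 2 libraries, with no replicate check and no test, and a gene with no called region may still carry the mark.

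Chemokines bind G protein-coupled receptors on leukocytes and set where these cells go. Interleukins act through receptor chains that signal by Janus kinases and STAT proteins or, in the interleukin 1 and 17 families, by adaptors that lead to NF-kappaB. Marrow stroma makes several of these factors, among them Cxcl12 and Il7, and senescent stromal cells are known for a secretory state that includes Il6 and chemokines. H3K36me2 is laid down by methyltransferases that include NSD2, the enzyme in the title of the study, and it usually spreads over large intergenic and intronic domains. A called region of this mark is no measure of expression.

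The depths were close, with 14180076.5 tags for melatonin and 13198427.5 for untreated cells, of which 1.12% and 1.24% lay in peaks. The lists held 7663 and 8325 peaks on chromosomes 1 to 19. The tags of a peak are given per 10000000 tags of the library, and its strength as the authors' fold over input. Tags were counted over the whole region and not divided by its width. Tag counts were small, with medians of 13.4 with melatonin and 13.6 without on this scale, so that a fold often rested on a few input tags. Because a called region needed a fold of at least 4, a peak in 1 list alone may lie close to that threshold in the other. Marker genes of cell types were counted when a peak overlapped the gene body or lay within 10 kb of it. By this count 9.24% of all protein-coding genes on chromosomes 1 to 19 had a melatonin peak and 8.69% an untreated peak. Of the marker genes of marrow stromal cells, 2 of 10 had a melatonin peak and 3 of 10 an untreated peak. The counts were 2 and 1 of 7 for myeloid cells, 4 and 2 of 5 for endothelial cells and 0 of 6 for lymphoid and erythroid cells in both lists. These counts cannot identify the cells, since the lists hold no expression.

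Peaks rarely touched an annotated promoter of any gene. Among 20085 annotated starts of protein-coding genes, the 250 bases before the start overlapped a melatonin peak in 0.0697% of cases and an untreated peak in 0.0647%. RefSeq promoters (GRCm38.p6) were found for 98 of the 130 genes, with 120 starts in all. Of these, 0 overlapped a melatonin peak and 1 an untreated peak. That start belongs to Il1rl1, which encodes ST2, the receptor chain for interleukin-33. Its 250 bases (chr1:40439379-40439628, plus strand) are shown because the untreated peak at 40438484 to 40439484 covered their first 106 bases, which are in capitals. Il1rl1 has another annotated start at 40429570, whose 250 bases no peak overlapped, with the nearest 1282 bp away. Both starts lie inside the gene body, which begins at 40404864. The start of Ccl9, a CC chemokine gene, is shown because a melatonin peak lay beside it. Its 250 bases (chr11:83578637-83578886, minus strand) ended 14 bp short of the melatonin peak at 83578900 to 83579900, and motif matches are in capitals.
Il1rl1: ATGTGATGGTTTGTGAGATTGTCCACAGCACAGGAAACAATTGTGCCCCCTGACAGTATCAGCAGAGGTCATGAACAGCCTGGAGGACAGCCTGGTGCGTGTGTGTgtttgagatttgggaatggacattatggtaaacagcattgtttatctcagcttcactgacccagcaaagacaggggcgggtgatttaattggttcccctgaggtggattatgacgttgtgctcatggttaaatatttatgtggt
Ccl9: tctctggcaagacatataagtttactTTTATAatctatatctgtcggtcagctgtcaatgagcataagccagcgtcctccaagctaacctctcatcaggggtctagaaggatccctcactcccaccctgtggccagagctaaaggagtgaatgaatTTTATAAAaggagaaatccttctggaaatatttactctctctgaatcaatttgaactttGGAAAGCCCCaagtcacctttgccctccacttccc

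Motifs of a TATA box (TATAAA), of STAT proteins (TTCNNNNGAA) and of NF-kappaB (the kappaB consensus) were searched on both strands of these 250 bases. Ccl9 held 3 TATAAA matches, of which 2 on opposite strands overlap, and 1 kappaB match, and the Il1rl1 stretch held none of the 3 motifs. TATAAA was present at 18.3% of the 120 starts and at 11.7% of all 20085. The STAT motif was present at 13.3% against 5.44%, and the kappaB consensus at 10.8% against 4.28%. These are matches of letters, and they were not related to the peaks.

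Peaks lay within reach of 32 of the 130 genes. A gene was counted when a peak overlapped its body or lay within 10 kb of either end. With melatonin 16 genes had a peak, or 12.3% (exact 95% binomial interval 7.2 to 19.2), where 9.24% of all protein-coding genes did. Without melatonin 23 had one, or 17.7% (11.6 to 25.4), against 8.69% of all genes. Both lists marked 7 of the 130, against 3.79% of all genes, the melatonin list alone marked 9, against 5.44%, and the untreated list alone marked 16, against 4.9%. The untreated count exceeded the melatonin count by 7 genes. But the order turned when a fold of 6 or more was required, with 7 genes for melatonin and 4 for untreated cells. At that fold the melatonin share was 5.38% against 3.77% of all genes. The untreated share was 3.08%, near the 3.0% of all genes. Neighbouring genes share peaks, so the intervals are too narrow: counted as 80 loci, in which genes less than 100 kb apart form 1 locus, 10 loci had a melatonin peak, 12 an untreated peak and 5 both.

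Shares above those of all genes were also seen within each of the 4 length classes compared. For melatonin, the exact interval included the share of all genes in each class. For untreated peaks it did so in genes over 50 kb alone (33.3%, 9.92 to 65.1, against 23.2%). The genes were short, with a median of 8.15 kb against 17.5 kb for all genes, and the longest, Il1rap, measured 149 kb. In genes up to 5 kb, 7.5% of 40 members had a melatonin peak against 2.17% of all genes of that length, and 12.5% had an untreated peak against 2.1%. In genes of 20 to 50 kb, 13% of 23 members had a melatonin peak against 7.92%, and 30.4% an untreated peak against 7.2%. Weighted to the members' mix of chromosomes and length classes, the shares of the other protein-coding genes were 6.5% for melatonin and 5.94% for untreated cells. The whole set lay nearer to peaks than genes in general, at a median of 129 kb from a melatonin peak against 236 kb for all genes, and 176 kb from an untreated peak against 292 kb.

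**Figure D1:**
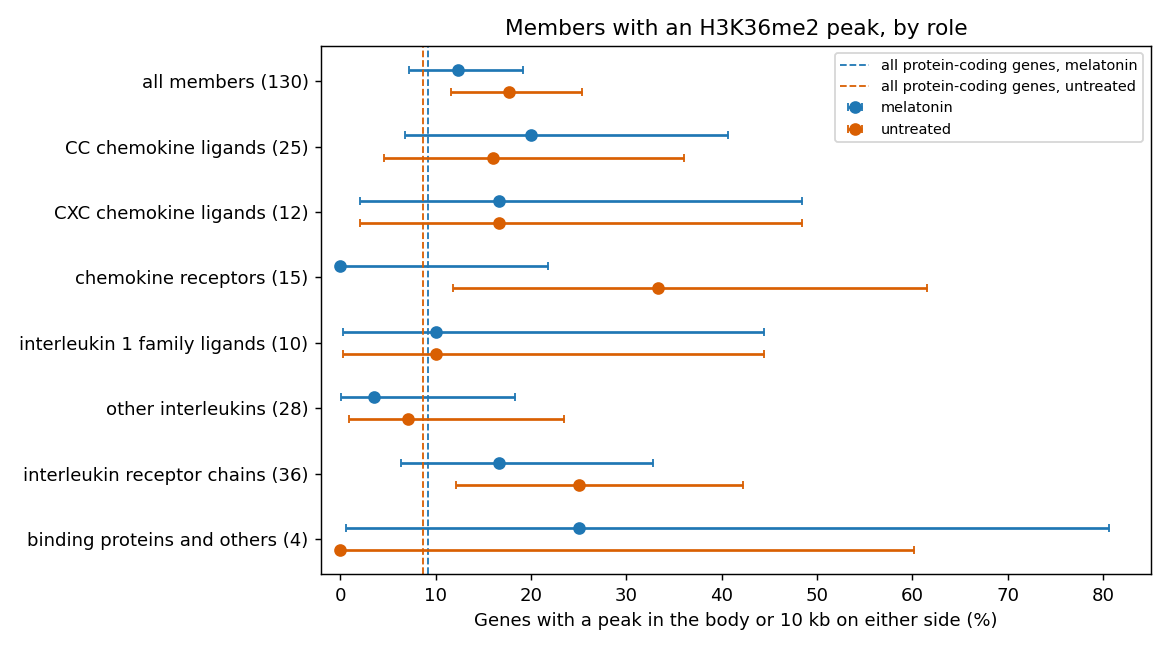
Share of genes with a peak in the body or within 10 kb of it (x axis, percent) for all 130 genes and by role (number of genes in parentheses), in the melatonin list (blue) and the untreated list (orange). Bars are exact 95% binomial intervals and dashed lines are the shares of all protein-coding genes, 9.24% and 8.69%. The chemokine receptors stand at 0% with melatonin and 33.3% without.

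Most of these peaks lay beside the genes and not in them. Of the 17 distinct melatonin peaks, 5 overlapped the body of a member and 12 lay only in flanks. Of the 28 untreated peaks, 12 overlapped a body and 16 lay only in flanks, 1 of them inside another protein-coding gene, Rufy4 beside Cxcr2. With 10 kb on either side and a median gene of 8.15 kb, flanks made up most of the window of a typical member. The split of peaks between bodies and flanks was not counted for all genes. For gene bodies alone, 3.85% of members had a melatonin peak against 5.76% of all genes, and 6.92% an untreated peak against 5.48%. In the flanks with a known strand, melatonin peaks lay upstream in 4 gene and peak pairs and downstream in 7, and untreated peaks in 11 and 4. A peak between neighbours counts for each of them, as between Ccl12 and Ccl8. The pairs are therefore not independent, and no such split was made over all genes. Over the merged windows of 4.72 Mb, the density was 3.6 melatonin peaks per Mb (exact 95% Poisson interval 2.1 to 5.77) against 2.44 in the windows of all protein-coding genes. It was 5.94 untreated peaks per Mb (3.94 to 8.58) against 2.48. Peaks gathered in a few loci, such as the interleukin 1 receptor locus below, so these intervals are too narrow as well.

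The interleukin 1 receptor locus on chromosome 1 held peaks at all 6 of its genes. This block of 487 kb (40074692 to 40561707, with 10 kb on both sides) carries Il1r2, Il1r1, Il1rl2, Il1rl1, Il18r1 and Il18rap, which encode the receptor chains for interleukins of the interleukin 1 family. It held 7 melatonin peaks and 16 untreated peaks, or 14.4 per Mb (exact Poisson interval 5.78 to 29.6) and 32.9 per Mb (18.8 to 53.4). The whole chromosome, from its first to its last peak, held 3.25 and 3.74 per Mb, and the 1000 kb on either side of the block held 5 and 3 per Mb. Of all windows of this length on chromosomes 1 to 19, taken every 10 kb, 5.39% held at least 7 melatonin peaks and 0.942% at least 16 untreated peaks. This block and the chemokine blocks with Ccl2 and with Cxcl5 held the most peaks of the 25 loci with at least 2 members. Window shares and intervals for blocks of the highest counts are a description and no test. The peaks of both lists overlapped at 3 sites.

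Il1r1, which encodes the signalling receptor for interleukin 1, had no melatonin peak within 10 kb, the nearest lying 53.7 kb away. Without melatonin it had a peak 6.76 kb upstream (12.9 tags, fold 7.26) and 1 in the body (23.1 tags, fold 5.58). The first of these had the highest fold of any untreated peak at a member. Il1r2, the decoy receptor gene, had an untreated peak in its body (13.6 tags, fold 4.61) and no melatonin peak in its window. Between Il1r2 and Il1r1, beyond 10 kb from both, lay 3 melatonin peaks with folds of 16.09, 10.14 and 4.6. The same gap held 5 untreated peaks with folds of 4.36, 6.41, 6.23, 5.84 and 10.89, and 2 of the 3 melatonin peaks overlapped one of them.

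Il1rl2, the gene of the receptor for interleukin-36, had a peak in both lists at different places. The melatonin peak lay 2.32 kb downstream (14.5 tags, fold 17.83, on 1 input tag), and the untreated peaks lay in the body (14 and 17.8 tags, folds 4.31 and 6.02). The nearest 2 of opposite lists were 13.8 kb apart. Il1rl1 had the most peaks of any member, 2 with melatonin and 4 without. Upstream of it, the melatonin peak at 40397332 to 40398867 (24.3 tags, fold 5) and the untreated peak at 40396884 to 40397884 (14 tags, fold 5.27) overlapped by 552 bp. The other melatonin peak lay in the body (13.4 tags, fold 6.61), as did 3 untreated peaks with 13.6 to 20.8 tags, among them the one at the promoter shown above. The interleukin-18 receptor chain genes had 1 peak each within 10 kb. Il18r1 had a melatonin peak 0.174 kb past its end (19.4 tags, fold 5.98) and its nearest untreated peak at 12 kb. Il18rap had an untreated peak 1.48 kb upstream (13.3 tags, fold 5.61) and its nearest melatonin peak at 12.9 kb, so which list marked each gene depends on the edge of the window.

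**Figure D2:**
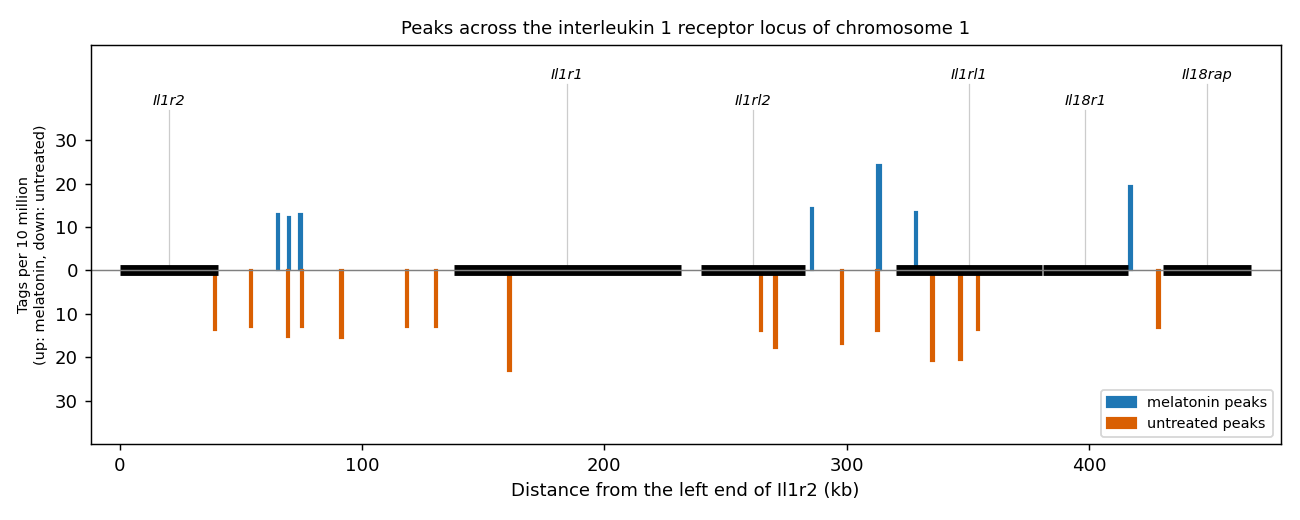
Peaks across the interleukin 1 receptor locus (x axis, kb from the left end of Il1r2), drawn to scale with height as normalized tags, melatonin upward in blue and untreated downward in orange. Black bars are gene bodies. The 16 untreated peaks spread over the block, while the 7 melatonin peaks form a group between Il1r2 and Il1r1 and a group from Il1rl2 to Il18r1.

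Partners of these receptors on other chromosomes had peaks in 1 list each. Il1rap, the gene of the accessory chain that several of these receptors share, had a melatonin peak in its body on chromosome 16 (26709233 to 26710233, 12 tags, fold 5.91), and its nearest untreated peak lay 171 kb away. Il33, the ligand gene of ST2, had 2 untreated peaks on chromosome 19: 1 of 1874 bp in the body (29952015 to 29953889, 25.4 tags, fold 5.72) and 1 at 4.44 kb downstream (13.3 tags, fold 4.49). Its nearest melatonin peak lay 92.8 kb away. Il18, which encodes interleukin-18, had a melatonin peak 4.28 kb downstream (17.6 tags, fold 4.35) and its nearest untreated peak 387 kb away. The other 8 ligand genes of the family, Il1a, Il1b, Il1rn and 5 named Il1f with a number, had no peak in either list. Il1a and Il1b, the interleukin 1 ligand genes of chromosome 2, lay 247 and 312 kb from a melatonin peak and 578 and 643 kb from an untreated peak.

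The CC chemokine locus of chromosome 11 was dense in peaks in both lists. The block of 164 kb (82025577 to 82189812) carries Ccl2, Ccl7, Ccl11, Ccl12, Ccl8 and Ccl1, which encode chemoattractants of monocytes, eosinophils and lymphocytes. It held 9 melatonin peaks (54.8 per Mb, exact Poisson interval 25.1 to 104) and 7 untreated peaks (42.6 per Mb, 17.1 to 87.8), where the chromosome held 2.92 and 2.65 per Mb. The 1000 kb on either side held 3.5 and 2.5 per Mb. At least 9 melatonin peaks were found in 0.197% of all windows of this length and at least 7 untreated peaks in 0.974%. The lists overlapped at 2 sites in the block. The peaks with the most tags were untreated regions of 2036 and 1688 bp between Ccl8 and Ccl1, beyond 10 kb from both. They held 26.1 and 29.9 tags (folds 4.91 and 4.82), and the second overlapped a melatonin peak of 17.6 tags and fold 7.25.

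Ccl11, which encodes eotaxin, had 2 melatonin peaks, 1 over the left end of the gene (82057780 to 82059038, 16.6 tags, fold 5.84) and 1 at 0.918 kb to the right (17.3 tags, fold 4.26). Its nearest untreated peak lay 25.3 kb away. Ccl12, a monocyte chemoattractant gene, had a melatonin peak that began 0.011 kb past its end (16.6 tags, fold 6.81). Ccl12 and Ccl8 lay on either side of 1 site called in both lists, with 15.5 tags and fold 4.25 in the melatonin list and 14.8 tags and fold 4.17 in the untreated list, and an overlap of 469 bp. Ccl1, a chemokine gene of activated T cells, had an untreated peak in its body (16.7 tags, fold 4.34), and its nearest melatonin peak lay 11.9 kb away. Ccl2, the main monocyte chemoattractant of stroma, lay 20.3 kb from a melatonin peak and 50.8 kb from an untreated peak, and Ccl7 lay 10.3 and 40.7 kb away, so both fell outside the window.

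The second CC chemokine block of chromosome 11, with Ccl5, Ccl9, Ccl6, Ccl3 and Ccl4 over 159 kb, held 1 melatonin peak and 3 untreated peaks. The melatonin peak (13.4 tags, fold 16.52, on 1 input tag) lay 0.264 kb upstream of Ccl9 and 7.99 kb downstream of Ccl6, both macrophage chemokine genes. The untreated peak of Ccl6 lay 2.07 kb upstream of it (20.1 tags, fold 4.25) in the bodies of noncoding genes. Ccl5, a T cell chemoattractant gene, lay 48.4 and 54.3 kb from a peak. Outside these 2 blocks, 14 CC ligand genes had no peak. They included the near-identical Ccl21 and Ccl27 copies of chromosome 4, where reads of the copies may not be told apart.

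The CXC chemokine locus of chromosome 5 carried peaks of both lists between its genes. Its 167 kb hold Cxcl5, Cxcl3, Cxcl15, Cxcl1 and Cxcl2, whose products attract neutrophils, and contained 4 melatonin peaks (24 per Mb, exact Poisson interval 6.54 to 61.5) and 5 untreated peaks (30 per Mb, 9.74 to 70). The chromosome held 2.26 and 2.79 per Mb, and 3.34% and 2.46% of all windows of this length held as many. None of the 9 peaks overlapped a peak of the other list. Cxcl5 had a melatonin peak 6.74 kb to its left (12.3 tags, fold 15.22, on 1 input tag). Cxcl3 had untreated peaks 4.17 and 2.77 kb upstream (16.7 and 13.6 tags, folds 4.03 and 5.77), which also lay within 10 kb of the platelet chemokine gene Pf4. Cxcl15 had a melatonin peak over its end (16.2 tags, fold 5) and an untreated peak 6.18 kb downstream (14.4 tags, fold 4.87). Cxcl1 lay 45.5 and 19.4 kb from a peak. Cxcl12, the marrow niche chemokine of chromosome 6, lay 119 kb from a melatonin peak and 168 kb from an untreated peak.

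**Figure D3:**
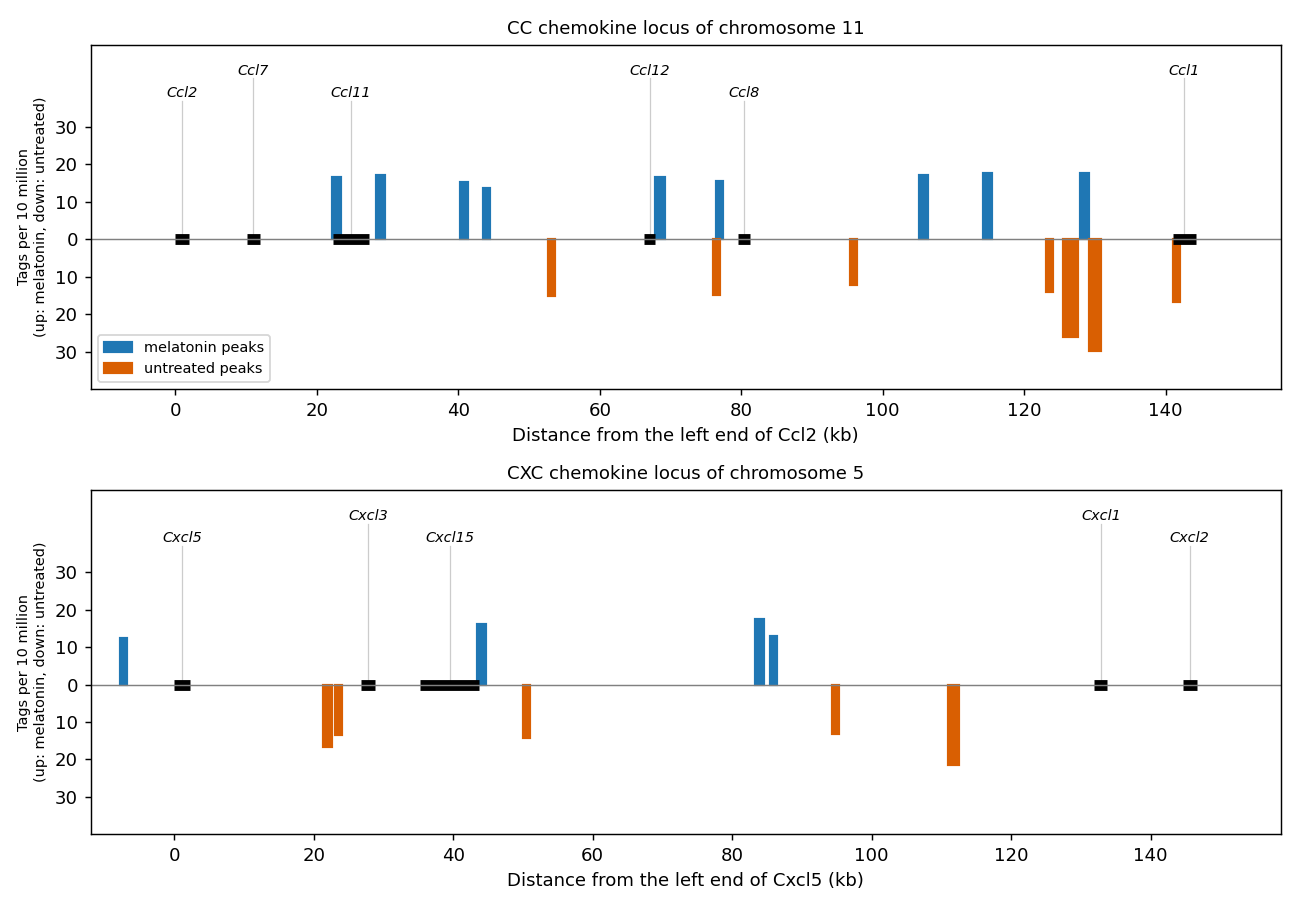
Peaks across 2 chemokine loci (x axis, kb from the left end of the first gene), with height as normalized tags, melatonin upward in blue and untreated downward in orange. Black bars are gene bodies. The upper block, on chromosome 11, shows 9 melatonin and 7 untreated peaks, and the lower block, on chromosome 5, shows 4 and 5.

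The chemokine receptor genes had peaks in the untreated list alone, at 5 of 15 (33.3%, exact interval 11.8 to 61.6), where 8.69% of all genes had one. The melatonin list had 0 of 15 (0 to 21.8), an interval that includes the 9.24% of all genes. Ccr1, Ccr3 and Ccr2 are neighbours on chromosome 9, so the count does not stand for separate places in the genome. Ccr1 had a peak 0.947 kb upstream (15.5 tags, fold 4.38), and Ccr3, the eotaxin receptor gene, had one in its body (12.9 tags, fold 6.23). Ccr2, a receptor gene of monocytes, had one 3.38 kb downstream (13.3 tags, fold 4.08). The nearest melatonin peak to Ccr1 lay 294 kb away. Cxcr2, a neutrophil receptor gene of chromosome 1, had an untreated peak 9.01 kb upstream (12.9 tags, fold 4.84), inside Rufy4. Cxcr4, the receptor gene for Cxcl12, lay 77.9 and 144 kb from a peak. Among the 15 receptor genes, Ccr3 alone had a peak with a fold of 6 or more.

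Receptor chains of the interleukin 12 family carried the peak with the most tags of the set, which was also the widest. In the body of Il12rb2, the gene of a signalling chain for interleukin-12, the untreated list held a region of 2231 bp on chromosome 6 (67333454 to 67335685, 33.7 tags, fold 5.43), which ranked 21 by tags among all peaks of that list. A melatonin peak lay in the same gene 9.36 kb away (67345049 to 67346049, 15.2 tags, fold 4.67). Its neighbour Il23r, the gene of the interleukin-23 receptor chain, had an untreated peak in the body (14.4 tags, fold 4.06). Il12a, which encodes a subunit of interleukin-12, had a melatonin peak 1.52 kb downstream (13.8 tags, fold 5.65), with the nearest untreated peak at 15 kb. Il27ra, a receptor gene of the same family, had a melatonin peak 9.93 kb away (13.4 tags, fold 5.51), just inside the window.

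Il6st, which encodes gp130, the chain shared by interleukin-6 and its relatives, had an untreated peak 7.1 kb upstream on chromosome 13 (14 tags, fold 4.31) and its nearest melatonin peak at 31.2 kb. Il6 itself (chromosome 5, 30013114 to 30019975) had no peak within 10 kb, with a melatonin peak at 11.2 kb, just outside the window, and an untreated peak at 74.9 kb. Il6ra, the gene of the interleukin-6 binding chain, had an untreated peak at 12.7 kb and a melatonin peak at 463 kb. Il11, another ligand that signals through gp130, lay 91 and 1270 kb from a peak. Il7, the stromal factor of lymphocyte progenitors, had an untreated peak 7.53 kb to its right (15.5 tags, fold 4.78) and its nearest melatonin peak 426 kb away. Il3, a growth factor gene of blood progenitors, had an untreated peak 9.02 kb upstream (12.9 tags, fold 6.23). Il17ra, the main interleukin-17 receptor gene, had an untreated peak 6.32 kb to its left (14 tags, fold 5.93) and none from melatonin within 343 kb. Il16, which encodes a chemoattractant precursor, had a melatonin peak 5.02 kb upstream (13.8 tags, fold 11.3, on 1.5 input tags). Il15 lay 17.3 and 44.4 kb from a peak, and Il34, a ligand of the macrophage colony-stimulating factor receptor, 99.9 and 421 kb.

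The remaining 98 genes had no peak within 10 kb in either list. They included 25 of the 28 other interleukin genes, whose shares of 3.57% with melatonin and 7.14% without lay below those of all genes, with intervals that include them (0.0904 to 18.3 and 0.877 to 23.5). They also included 24 of 36 receptor chain genes, a group whose shares of 16.7% with melatonin (6.37 to 32.8) and 25% without (12.1 to 42.2) lay above those of all genes. The melatonin interval includes the 9.24% of all genes, and the untreated interval does not include 8.69%. Of the receptor chain genes with a peak, 3 of 6 with melatonin and 5 of 9 without lay in the interleukin 1 receptor locus. The shares by role were not matched for gene length. Distances of the 98 genes ran from 10.3 kb to 4360 kb from a melatonin peak, with a median of 166 kb. From an untreated peak they ran from 12.7 kb to 4240 kb, with a median of 275 kb. Of the 25 loci with at least 2 members, 16 with 41 genes held no peak in either list. Among them were the block of Il1rn and the Il1f genes and the block of Il24, Il20, Il19 and Il10. Of all windows as long as the first of these blocks, 69.2% held no melatonin peak and 69.3% no untreated peak. For the length of the second, 74.1% held no melatonin peak and 74.1% no untreated peak. Lack of peaks in a given list was therefore common at these lengths, and windows empty in both lists were not counted. No member on chromosome 2 or chromosome 4, with 10 genes each, had a peak. Of all genes on these chromosomes, 9.99% and 3.84% had a melatonin peak and 9.37% and 3.46% an untreated peak. The exact interval for 0 of 10 genes, 0 to 30.8%, includes all of these shares.

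**Figure D4:**
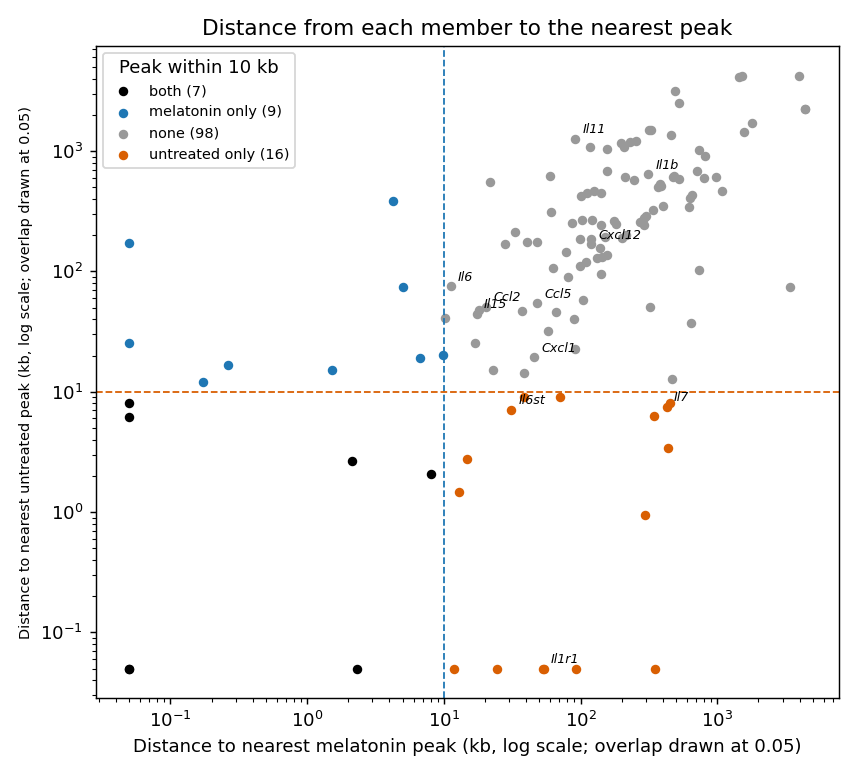
Distance from each of the 130 genes to the nearest melatonin peak (x axis) and untreated peak (y axis), both in kb on log scales, with overlaps drawn at the lower end. Dashed lines mark 10 kb, colours give the list with a peak inside that distance, and Il6 and Il15 sit just outside it on the melatonin side.

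The median tag count of the peaks at these genes lay above that of all peaks in both lists. The 17 melatonin peaks had a median of 15.2 tags (12 to 24.3), against 13.4 over all peaks, and the 28 untreated peaks a median of 14.2 (12.9 to 33.7), against 13.6. In the melatonin list the median fold was 5.84, against 5.11 over all peaks, and 4 of 17 peaks exceeded a fold of 10, against 7.53% of all peaks. In the untreated list the median fold was 4.86, against 4.87, and 0 of 28 exceeded 10, against 4.01%. The 4 highest folds, at Il1rl2, Ccl9 (shared with Ccl6), Cxcl5 and Il16, rested on 1 to 1.5 input tags, so a change of 1 input tag would move them strongly. The share of peaks of the smallest width, 1000 bp, was 58.8% and 67.9%, against 79.1% and 79.6% of all peaks. The tags were not divided by width, and whether wider regions account for the higher medians was not tested. Only 2 sites in the windows, the one upstream of Il1rl1 and the one between Ccl12 and Ccl8, were called in both lists.

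**Figure D5:**
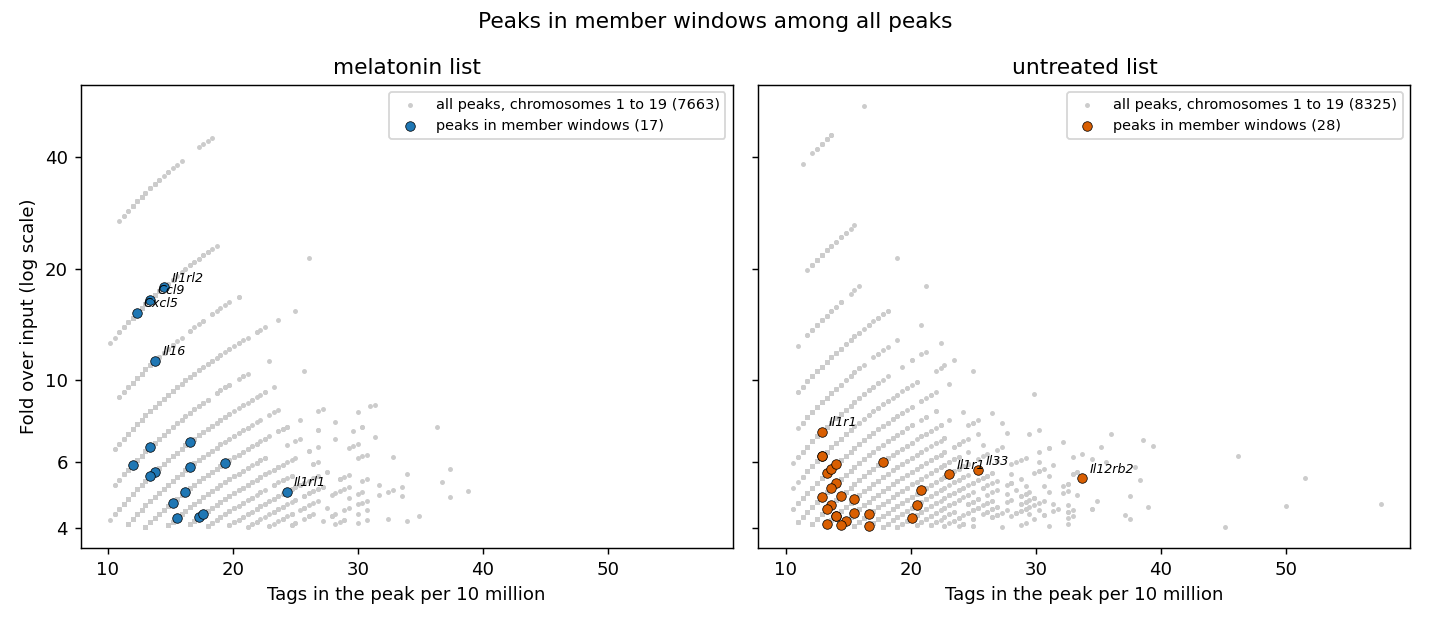
Fold over input (y axis, log scale) against normalized tags (x axis) for all peaks on chromosomes 1 to 19 (grey) and for peaks in the windows of the 130 genes (blue, melatonin, 17; orange, untreated, 28). Members' peaks with a fold over 7 or over 23 tags are named by gene. The 4 blue points above a fold of 10 have 12.3 to 14.5 tags, and the orange point with the most tags is Il12rb2 at 33.7.

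Peaks at genes that act below these receptors were counted in the same way. Of 35 genes of Janus kinases, STAT proteins, adaptors, NF-kappaB subunits and chemokine receptor partners, 1 had a melatonin peak (2.86%) and 4 an untreated peak (11.4%), beside 9.24% and 8.69% of all genes. The melatonin peak lay 3.17 kb from Tab2, an adaptor gene of the interleukin 1 pathway (15.9 tags, fold 4.35). The untreated peaks lay beside Stat4 (fold 4.59), Socs3 (fold 5.13), Nfkb1 (fold 4.3) and Nfkbiz (fold 20.51, on 0.8 input tags), and none of the 5 was inside the gene. Of 32 further cytokine, chemokine and receptor genes outside the symbol rule, 1 had a melatonin peak, Csf1r (fold 4.6), and 4 an untreated peak, Kitl, Xcl1, Csf2 and Pf4. Kitl, the stem cell factor gene, had 1 in the body (17 tags, fold 9.61) and 1 at 3.01 kb (18.2 tags, fold 15.38).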

How the data were processed

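H3K36me2 ChIP-seq peak lists of 2 libraries were analysed, 1 per condition. Per the file headers, the authors ran HOMER findPeaks (histone style) on each ChIP library against its own input. The deposited lists are named with the library numbers of the inputs, whereas their headers give the ChIP library as the one peaks were called in, and the headers were followed. A window of 1000 bp needed 18 (melatonin) or 17 (untreated) tags, a ratio to input of 4 and a p of 1e-04, windows were stitched into regions, and no local filter was applied. BWA 0.7.13, Picard 1.126 and MACS2 2.1.0 appear in the submitters' processing notes, and no source used here gives the HOMER version. The normalized tag count deposited is a signal per 10000000 tags. ChIP and input tags are also a deposited signal, with the deeper library scaled down. The deposited fold is a ratio of scaled ChIP to input tags, the deposited p-value is an unadjusted Poisson p, and the deposited findPeaks score was not used.

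Those notes name mm39, but the coordinates were read as GRCm38: in both lists, peak midpoints fell least often in coding genes of the RefSeq table (GRCm38.p6) when they were not shifted (29.1% and 27.8%, against medians of 42% and 39% over shifts up to 500 kb in steps of 20 kb). Overlap meant 1 bp or more with the gene body or 10 kb on either side. Genes less than 100 kb apart formed 1 locus. Length classes ended at 5, 20 and 50 kb. Chromosome densities ran from the first to the last peak. Strand came from the RefSeq promoter table. Intervals describe counting error over genes or called peaks alone, since each condition had 1 ChIP library. They treat neighbouring genes and peaks as independent. PCR copies among the tags would not be independent molecules. Python 3.11.15, pandas 2.3.3 and SciPy 1.17.1 were used, and window counting was tested on simulated data.

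The members and lists were chosen with earlier results of these data known. Named are Il6, Il1a, Il1b, Il6st, Il7, Il11, Il15, Il34, Ccl2, Ccl5, Cxcl1, Cxcl12, Cxcr4 and Il1r1, members with a peak in both lists, and the 10 members of highest fold in each list. Other members with a peak are named with their values too, which the rule had limited to 1 value each. The alternatives were other windows, thresholds, overlap and assignment rules, added X-linked genes, and, added after the data were seen, 2 left-out loci. A result on 1 receptor gene is not reported here.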

Additional observations from a re-analysis of the deposited data

How the results depend on the processing

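The 3 counts, of genes with a melatonin peak, with an untreated peak and with both, were 16, 23 and 7 as reported. They became 5, 9 and 2 for gene bodies alone, and 9, 11 and 2 with 2 kb on either side. With 50 kb on either side they were 38, 43 and 27. With 2 kb, 6.92% of members had a melatonin peak against 6.25% of all genes, and 8.46% an untreated peak against 6.02%. With 50 kb these shares were 29.2% against 20.9% and 33.1% against 18.9%. For gene bodies alone they were 3.85% against 5.76% and 6.92% against 5.48%. With a fold of 6 or more required the 3 counts were 7, 4 and 1, which put the melatonin count above the untreated count. The melatonin share of members was then 5.38% against 3.77% of all genes. The untreated share was 3.08% against 3.0%, so its excess over all genes was no longer seen. With neighbours counted as 1 locus, 10 loci had a melatonin peak and 12 an untreated peak. The other 6 planned settings kept the 3 counts within 1.5 times. Of the 2 settings chosen after seeing the data, leaving out the chromosome 11 CC chemokine loci lowered the genes marked in both lists to 4, and leaving out the interleukin 1 receptor locus kept all 3 counts within 1.5 times. The untreated count was the higher in 12 of these 13 settings. The settings recount the same 2 lists and are not independent of each other. Requiring a p of at most 1e-05 left all 3 counts unchanged. The untreated list was also the longer, with 8325 peaks against 7663 on chromosomes 1 to 19. With the same number of peaks in each list the counts were 16 and 21. No paired analysis was possible because each condition had 1 ChIP library. Peaks near the tag threshold and folds on few input tags limit what a missing peak can show.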

Other observations

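The symbol rule also fits 6 genes on the X chromosome, which were kept apart. Il13ra2, the gene of a decoy receptor for interleukin-13, had an untreated peak 8.07 kb away and its nearest melatonin peak at 155 kb. Il1rapl1 and Il1rapl2, receptor-like genes of 1380 and 1280 kb, had no peak in either list, although both are far longer than any member on chromosomes 1 to 19. Their nearest peaks lay at 1450 and 1150 kb with melatonin and at 15400 and 557 kb without. Il13ra1, Il2rg and Cxcr3 had none within 10 kb either. Each list held 36 peaks on the whole chromosome.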
